A study of Mus musculus with 7 samples.

Results

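A set of 10 genes used as markers of alternatively activated macrophages, Mrc1, Cd163, Folr2, Stab1, Clec10a, Msr1, Marco, Retnla, Gpnmb and Maf, were followed by gene symbol through a table of 24421 genes, which held all 10 of them. The table came from polyadenylated RNA of 7 mouse tumours, 1 library per tumour and 1 tumour per named mouse. The 4 anti-LAIR1 tumours came from mice treated with anti-Lair1 and anti-PD-1, and the 3 control tumours from mice treated with anti-KLH, an antibody to keyhole limpet haemocyanin, and anti-PD-1. All 7 were taken at week 4, and the starting point of that count is not stated in the sources used here. LAIR1 is an inhibitory receptor of leukocytes that binds collagen, and PD-1 an inhibitory receptor of T cells, so both groups had PD-1 blocked and differed by label in LAIR1 blockade.

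The series describes a pair of models, and the labels do not say which of them these tumours came from. One is the mouse lung cancer line 344SQ, from mice with a p53 R172H allele, grown under the skin of 129/Sv mice that were 6 to 8 weeks old. The dosing given for it is 10 mg/kg for the LAIR antibody and 8 mg/kg for anti-PD-1. The other is lung tumours started by Cre-carrying adenovirus in genetically engineered mice with floxed p53, infected at 3 to 4 months of age and given antibodies 2 months later. A tumour from a transplanted line would derive from 1 line, so mice would then be replicates of the host and of the graft. The names of all anti-LAIR1 mice begin with WTSV and those of the controls with LOHM or KWM, so that whatever these prefixes mark cannot be told apart from the antibody.

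Macrophages exposed to interleukin 4 or interleukin 13 signal through STAT6 and take on a state called alternative activation, in which endocytic lectins and scavenger receptors, secreted effectors and arginase are typical products. Interleukin 10, glucocorticoids and macrophage colony-stimulating factor raise an overlapping set that includes CD163 and the transcription factor MAF. In tumours such cells are common among the resident macrophages, clear debris and matrix, and are usually described as weakly inflammatory. Several of the genes are not restricted to macrophages: Mrc1 and Stab1 are also made by sinusoidal or lymphatic endothelium, Clec10a and Mrc1 by dendritic cells, Gpnmb by melanocytes, osteoclasts and some tumour cells, and Maf by T cells and others.

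None of the 9 tested markers differed between the groups by the test used, although most levels were somewhat higher on average with anti-LAIR1. Among the 9 that had enough counts to be tested, 8 had a log2 fold change (anti-LAIR1 minus control) above 0 and 1 below 0, with a median of 0.52. Of all 13545 genes tested 49.1% were above 0, with a median of -0.0028. By edgeR's quasi-likelihood test 0 of the 9 passed an adjusted p of 0.05, and 0 of all genes (0%) passed it. At an unadjusted p under 0.05 the count was 0 of 9, against 5.15% of all genes. After adjustment DESeq2 called 0 markers, beside 54 of the 18558 genes it fitted, and limma-voom 0 markers, beside 0 of 13545 genes. The 18558 are all genes with any count, and the default filter of DESeq2 can leave some of them without an adjusted p. For all 10 markers the groups overlapped, Marco only through a tie at 0 counts. Of all tested genes 3.06% were separated with anti-LAIR1 higher and 2.51% with it lower. Omitting control replicate 1 brought the markers' median to 0.24, omitting anti-LAIR1 replicate 3 to 0.29, and a covariate for skeletal muscle genes to 0.15. That covariate nearly followed the groups, apart from anti-LAIR1 replicate 2, so the fit could barely tell muscle level from group. In bulk tissue, fewer cells of a type and less RNA per cell cannot be told apart.

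Total counts ran from 11480651 to 15347403 in the anti-LAIR1 libraries and from 9879762 to 26255727 in the controls, the deepest being control replicate 1. Levels are given as CPM, that is counts over the library's TMM-scaled total in a common unit, and 3 counts were worth 0.119 to 0.305 CPM. General macrophage genes were present in every library. The mean log2 CPM of 14 core macrophage genes was 4.82, 4.45, 4.45 and 4.86 in anti-LAIR1 replicates 1 to 4, against 4.38, 4.04 and 4.10 in control replicates 1 to 3. Skeletal muscle genes were high in anti-LAIR1 replicates 1, 3 and 4 but not in replicate 2. The 8 marker genes summed to between 10.04 and 119.8 CPM with anti-LAIR1, against 4.99 to 8.15 CPM in controls. Of these, Acta1 averaged 3.51 ± 2.48 CPM in anti-LAIR1 and 0.0763 ± 0.0749 CPM in control tumours, Myh1 2.11 ± 1.49 CPM in anti-LAIR1 and 0.238 ± 0.411 CPM in control tumours and Ttn 63.4 ± 39.6 CPM in anti-LAIR1 and 4.43 ± 1.32 CPM in control tumours. The mean log2 CPM of the tested muscle genes, used as the covariate above, was 3.55, -0.49, 3.32 and 3.56 in anti-LAIR1 replicates 1 to 4. It was -0.69, -0.37 and 0.13 in control replicates 1 to 3, so anti-LAIR1 replicate 2 lay among the controls. The covariate fit thus told muscle level from group mainly through that tumour. The part of muscle genes in the results on the markers was covered only by that fit.

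**Figure D1:**
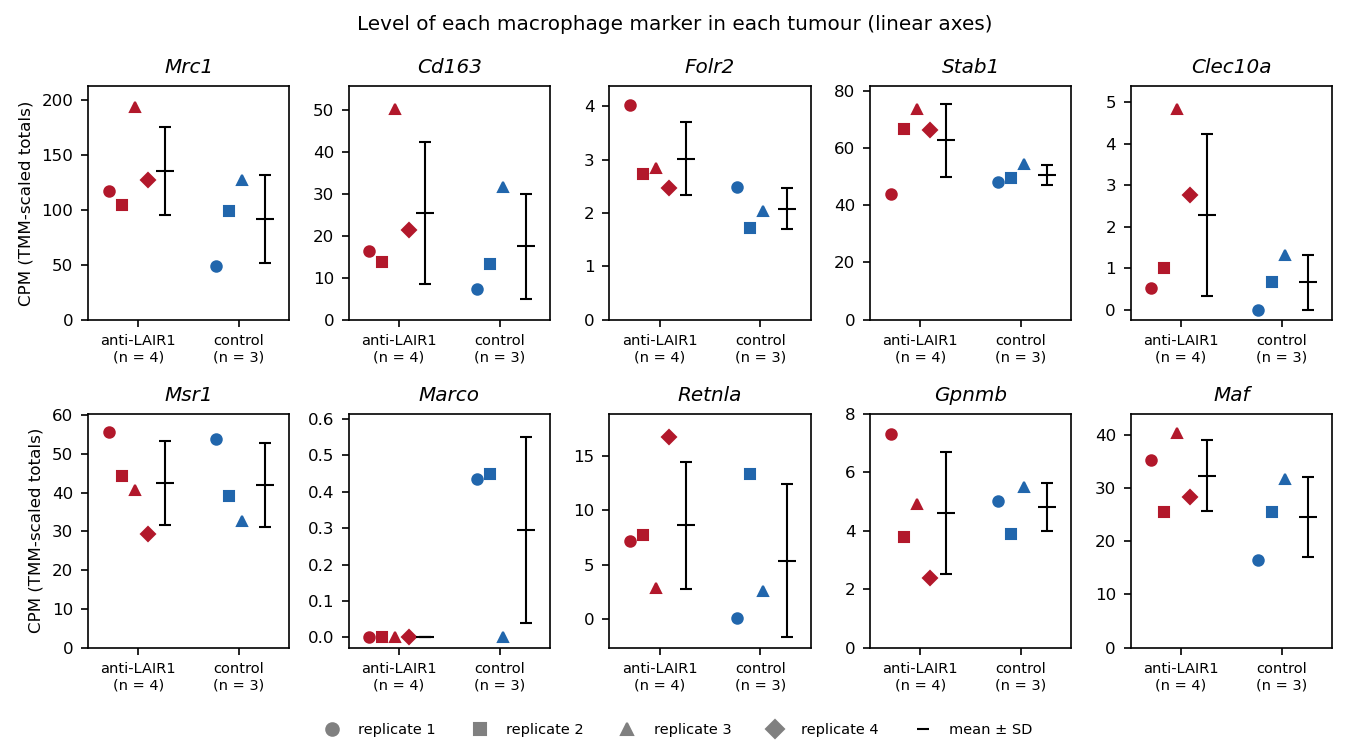
Level of each of the 10 markers in each tumour, in CPM on linear axes that differ between panels. Red symbols are the 4 anti-LAIR1 tumours, blue symbols the 3 control tumours, shapes the replicate, and the bar the mean with its SD; in all 10 panels the groups overlap, and control replicate 1 is the lowest tumour for Mrc1, Cd163, Clec10a, Retnla and Maf.

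The markers differed widely in abundance. Divided by the length of all annotated exons of the gene, the median over the 7 libraries was 18.4 CPM per kb for Mrc1, 11.98 for Retnla, 6.41 for Msr1, 5.30 for Stab1, 3.44 for Maf, 2.99 for Cd163, 1.61 for Folr2, 0.756 for Gpnmb, 0.344 for Clec10a and 0 for Marco. In this order each gene's range over the libraries overlapped that of the next, whereas ranges of genes further apart could be separate. For example, Stab1 ran from 4.28 to 7.15 and Folr2 from 1.11 to 2.60 CPM per kb. The ranges were not paired by library, so an overlap does not show that neighbours were alike. Retnla alone reached from the top of the order to near its bottom, from 0.198 to 27.9 CPM per kb.

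The endocytic lectin Mrc1, the mannose receptor CD206 (chromosome 2, 14229414 to 14332023, GRCm38), had the highest median of the markers per kb. It had 117, 104, 193 and 127 CPM in anti-LAIR1 replicates 1 to 4, against 48.9, 98.7 and 127 CPM in control replicates 1 to 3. Control replicate 3 lay level with anti-LAIR1 replicate 4, and 1 control tumour, replicate 1, was far below the rest. The anti-LAIR1 mean was 135 ± 39.7 CPM (SD, n = 4) and the control mean 91.6 ± 39.7 CPM (SD, n = 3), a log2 fold change of 0.57 ± 0.34 (SE; 95% interval -0.23 to 1.36, edgeR adjusted p = 0.993). Omitting control replicate 1 gave 0.26, omitting anti-LAIR1 replicate 3 gave 0.35, omitting control replicate 3 gave 0.87, and the muscle covariate gave 0.15.

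Cd163, the receptor for haemoglobin bound to haptoglobin (chromosome 6, 124304636 to 124330529), followed the tumours in the same order as Mrc1. Its levels were 16.3, 13.8, 50.3 and 21.5 CPM with anti-LAIR1, against 7.40, 13.4 and 31.7 CPM in controls. Both genes were highest in anti-LAIR1 replicate 3, next in control replicate 3, and lowest in control replicate 1. The Cd163 means were 25.5 ± 16.9 CPM in anti-LAIR1 and 17.5 ± 12.6 CPM in control tumours, which gave a fold change of 0.57 on the log2 scale (SE 0.63, 95% interval -0.91 to 2.05, edgeR adjusted p = 1.00). The quotient of Cd163 over Mrc1, taken within each library and chosen after the values were seen, ran from 0.133 to 0.261 with anti-LAIR1 and from 0.136 to 0.249 in controls. Single tumours moved the Cd163 fold change widely: it was 0.0054 without anti-LAIR1 replicate 3, 0.18 without control replicate 1 and 1.30 without control replicate 3. With the muscle covariate it was -0.32.

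Maf, a basic leucine zipper transcription factor that works with interleukin 10 and M-CSF signals in macrophages (chromosome 8, 115703253 to 115706894), had 35.3, 25.5, 40.3 and 28.3 CPM with anti-LAIR1. The controls had 16.5, 25.4 and 31.7 CPM. Here too control replicate 1 was lowest and anti-LAIR1 replicate 3 highest, and control replicate 3 lay above anti-LAIR1 replicates 2 and 4. The log2 fold change came to 0.41 (SE 0.23, 95% interval -0.12 to 0.94, edgeR adjusted p = 0.980), 0.18 when control replicate 1 was omitted, 0.63 when control replicate 3 was omitted and 0.038 with the muscle covariate.

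Clec10a, a lectin for terminal galactose and N-acetylgalactosamine (chromosome 11, 70166623 to 70170836), was close to the limit of counting. The raw counts were 8, 15, 56 and 38 with anti-LAIR1, against 0, 9 and 13 in controls, or 0.527, 0.998, 4.84 and 2.76 CPM with anti-LAIR1 and 0, 0.673 and 1.32 CPM in controls. The 0 counts of control replicate 1 allow up to 0.119 CPM by the limit of 3 counts. Anti-LAIR1 replicates 3 and 4 were above all controls and replicates 1 and 2 were not; the exact 95% Poisson interval of replicate 3 was 3.65 to 6.28 CPM and that of control replicate 3 was 0.705 to 2.26 CPM, both covering counting error only. The log2 fold change of 1.97 had an SE of 1.14 and an interval from -0.66 to 4.59 (edgeR adjusted p = 0.980). Dropping control replicate 1 gave 1.19, dropping anti-LAIR1 replicate 3 gave 1.30, dropping control replicate 3 gave 2.98, and the value was 0.77 with the muscle covariate. Mgl2, a neighbouring and closely similar lectin gene that may share reads with Clec10a, averaged 10.50 ± 5.29 CPM in anti-LAIR1 and 3.83 ± 1.36 CPM in control tumours, and its groups were separated (unadjusted p = 0.0062, edgeR adjusted p = 0.753). Summed, which removes any exchange of reads within the pair, the genes had 7.24, 7.72, 15.5 and 20.7 CPM with anti-LAIR1, against 3.25, 6.06 and 4.17 CPM in controls. That sum was formed after the values were seen and was not tested.

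Folr2, a folate receptor of resident-type macrophages (chromosome 7, 101839988 to 101857190), had 4.02, 2.73, 2.85 and 2.47 CPM with anti-LAIR1. The controls had 2.49, 1.72 and 2.04 CPM, so that only anti-LAIR1 replicate 4, by a small margin, lay below the highest control. Its log2 fold change came to 0.52 (SE 0.29, 95% interval -0.13 to 1.18, edgeR adjusted p = 0.980), and it lay between 0.35 and 0.68 over 15 alternative analyses. Folr1, its relative, had 0 counts in all 7 libraries.

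Stab1, stabilin-1, a scavenger receptor for modified proteins and matrix fragments (chromosome 14, 31139017 to 31168651), varied least among the tumours. It had 44.0, 66.6, 73.6 and 66.3 CPM with anti-LAIR1, against 47.9, 49.5 and 54.6 CPM in controls. Anti-LAIR1 replicates 2, 3 and 4 were above all controls and replicate 1 was the lowest of the 7. The fold change was 0.31 on the log2 scale (SE 0.16, 95% interval -0.056 to 0.67, edgeR adjusted p = 0.980). Blood and lymphatic endothelial markers, which belong to other cells that make Stab1, summed to 140 to 184 CPM in anti-LAIR1 tumours and 107 to 136 CPM in control tumours, and their part in the Stab1 values was not tested. Of the 8 endothelial markers tested, 7 had a log2 fold change above 0 and 1 below, with a median of 0.31. Pecam1 averaged 36.1 ± 5.40 CPM in anti-LAIR1 and 25.9 ± 5.65 CPM in control tumours. Cdh5 averaged 41.6 ± 2.73 CPM in anti-LAIR1 and 32.0 ± 6.16 CPM in control tumours, with separated groups (edgeR adjusted p = 0.933). Kdr averaged 15.2 ± 2.00 CPM in anti-LAIR1 and 12.3 ± 2.47 CPM in control tumours. Among genes of lymphatic endothelium, Flt4 ran from 23.8 to 58.2 CPM in anti-LAIR1 and from 30.5 to 39.3 CPM in control tumours, and Pdpn from 6.18 to 11.6 CPM in anti-LAIR1 and from 7.09 to 8.98 CPM in control tumours, whereas Prox1 stayed at 0.532 CPM or less in every library. Stab2, the liver and lymphatic relative of Stab1, stayed at 1.02 CPM or less.

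The scavenger receptor Msr1 (SR-A, chromosome 8, 39543232 to 39642750) and Gpnmb, a lysosome-linked glycoprotein of lipid-laden macrophages (chromosome 6, 49036518 to 49058182), did not share the order of Mrc1 and Cd163. Msr1 had 55.6, 44.3, 40.7 and 29.4 CPM with anti-LAIR1, against 53.8, 39.1 and 32.7 CPM in controls. Control replicate 1, the lowest tumour for Mrc1, was the second highest for Msr1, and anti-LAIR1 replicate 4 was the lowest. The quotient of Mrc1 over Msr1, formed after the values were seen, was 2.11, 2.35, 4.75 and 4.33 with anti-LAIR1 and 0.908, 2.52 and 3.89 in controls. For Msr1 the log2 fold change was 0.014 (SE 0.23), and its interval, -0.51 to 0.54, leaves out a change by a factor of 2 in either direction (edgeR adjusted p = 1.00). Gpnmb had 7.31, 3.79, 4.92 and 2.40 CPM with anti-LAIR1, against 5.03, 3.89 and 5.50 CPM in controls, so the anti-LAIR1 tumours held both the highest and the lowest value. The Gpnmb fold change was -0.058 on the log2 scale (SE 0.35, 95% interval -0.84 to 0.72, edgeR adjusted p = 1.00). Of 6 melanocyte markers, Mlana, Dct, Tyr and Tyrp1 were at 0 counts in every library, Pmel had 3 to 9 counts in anti-LAIR1 and 2 to 3 counts in control tumours, and Mitf, which other cells also use, averaged 10.3 ± 2.22 CPM in anti-LAIR1 and 10.1 ± 2.56 CPM in control tumours. Osteoclast markers summed to 29.0 to 96.8 CPM in anti-LAIR1 tumours and 24.7 to 86.3 CPM in control tumours; Acp5 averaged 19.7 ± 16.8 CPM in anti-LAIR1 and 17.5 ± 17.1 CPM in control tumours, Ctsk 28.9 ± 13.1 CPM in anti-LAIR1 and 27.7 ± 16.0 CPM in control tumours and Dcstamp 2.12 ± 0.851 CPM in anti-LAIR1 and 1.49 ± 0.434 CPM in control tumours. The part of either group of markers in the Gpnmb values was not tested.

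Marco, a scavenger receptor of alveolar and marginal zone macrophages (chromosome 1, 120474538 to 120505024), was near the limit of detection and did not pass the count filter. It had 0 counts in all 4 anti-LAIR1 libraries, against 11, 6 and 0 in control replicates 1 to 3. By the limit of 3 counts, the 0 counts allow up to 0.198 to 0.259 CPM with anti-LAIR1, and the controls were at 0.436, 0.449 and 0 CPM, so that the values of both groups lie near the limit of detection. The 8 alveolar macrophage markers summed to 68.0 to 123 CPM in anti-LAIR1 tumours and 68.9 to 88.3 CPM in control tumours. Most of that sum came from Pparg, a nuclear receptor also used by adipocytes, at 57.7 ± 12.8 CPM in anti-LAIR1 and 50.6 ± 4.89 CPM in control tumours, and from Chil3, given with the other products of alternative activation. Among the other members, Car4 averaged 2.37 ± 1.14 CPM in anti-LAIR1 and 0.952 ± 0.586 CPM in control tumours and Fabp4 7.50 ± 10.6 CPM in anti-LAIR1 and 2.76 ± 1.73 CPM in control tumours, while Siglecf and Ear2 stayed at 0.218 CPM or less in every library.

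Retnla, which encodes the secreted protein RELM alpha (Fizz1) and is a standard readout of interleukin 4 and interleukin 13 acting through STAT6 in mouse (chromosome 16, 48842609 to 48844461), had the widest range. The counts were 109, 116, 33 and 230 with anti-LAIR1, against 3, 178 and 25 in controls. In CPM these were 7.18, 7.72, 2.85 and 16.7 with anti-LAIR1, against 0.119, 13.3 and 2.54 in controls. The highest and lowest tumours thus differed by a factor of 141, and single tumours of both groups were high (anti-LAIR1 replicate 4, control replicate 2) and low (anti-LAIR1 replicate 3, control replicates 1 and 3). The exact 95% Poisson intervals were 14.6 to 19.0 CPM for anti-LAIR1 replicate 4 and 0.0245 to 0.347 CPM for control replicate 1, so counting error is small beside the spread. The fold change of 0.73 on the log2 scale had an SE of 1.13 (95% interval -1.94 to 3.39, edgeR adjusted p = 1.00). Leaving out control replicate 1 brought it to 0.094, leaving out anti-LAIR1 replicate 4 to 0.18, control replicate 3 to 0.41 and control replicate 2 to 2.99. The similar genes Retnlb and Retnlg stayed at 0.0863 CPM or less and 0.407 CPM or less. Retnla is also expressed in mouse adipose tissue; 7 adipocyte markers summed to 8.56 to 124 CPM in anti-LAIR1 tumours and 3.44 to 25.1 CPM in control tumours. Besides Fabp4, Cidec averaged 5.87 ± 2.96 CPM in anti-LAIR1 and 2.88 ± 0.650 CPM in control tumours and Car3 23.1 ± 35.9 CPM in anti-LAIR1 and 5.86 ± 8.10 CPM in control tumours, and the part of these markers in the Retnla values was not tested.

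RefSeq promoter windows of GRCm38.p6, from 250 bases before to 50 after a gene's start, were found for 7 of the 10 markers. Those of Retnla, the marker with the widest range, and of Mrc1 and Cd163, which shared their order over the tumours, are shown from 5′ to 3′ on the gene's strand. Capitals mark, on either strand, matches to TTCNNNNGAA (the spacing preferred by STAT6), TTCNNNGAA (other STAT factors), GAGGAA (PU.1, the macrophage lineage factor), TGCTGA (the core of the MAF site), and CACGTG or CATGTG (E-boxes, bound by MiT factors among others).
Retnla, chr16:48842359-48842658, plus strand: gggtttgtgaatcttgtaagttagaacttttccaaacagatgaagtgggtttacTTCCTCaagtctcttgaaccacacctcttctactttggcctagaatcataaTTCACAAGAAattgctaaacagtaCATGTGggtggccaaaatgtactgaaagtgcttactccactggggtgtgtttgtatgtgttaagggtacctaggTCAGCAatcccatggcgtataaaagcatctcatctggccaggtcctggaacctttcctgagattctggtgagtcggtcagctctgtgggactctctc
Mrc1, chr2:14229164-14229463, plus strand: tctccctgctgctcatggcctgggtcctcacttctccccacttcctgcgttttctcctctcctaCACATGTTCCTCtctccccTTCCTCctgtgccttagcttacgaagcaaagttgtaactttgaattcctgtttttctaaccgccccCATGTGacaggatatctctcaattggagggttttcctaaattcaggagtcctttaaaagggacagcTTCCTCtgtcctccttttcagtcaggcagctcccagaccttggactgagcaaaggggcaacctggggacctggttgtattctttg
Cd163, chr6:124304401-124304700, plus strand: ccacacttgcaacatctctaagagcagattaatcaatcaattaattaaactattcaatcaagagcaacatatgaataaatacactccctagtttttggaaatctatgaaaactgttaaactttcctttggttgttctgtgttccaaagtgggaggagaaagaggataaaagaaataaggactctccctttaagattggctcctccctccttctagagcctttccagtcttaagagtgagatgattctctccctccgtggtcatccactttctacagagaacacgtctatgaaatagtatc
The Retnla window held 1 match to TTCNNNNGAA, with the letters TTCACAAGAA, whose first base lies 145 bases before the start, and it was the one marker window of 8 (Folr2 has a pair of start sites) with that motif, which 6.95% of 32851 promoter windows hold. It also held 1 match each to the PU.1 motif, the MAF core and the second of the E-boxes. The Mrc1 window held 3 matches to GAGGAA and 2 to CATGTG, with 1 of each lying side by side and none overlapping, and the Cd163 window held 0 matches to any of the motifs. GAGGAA occurs in 28.3% of all windows, TGCTGA in 19.5%, CATGTG in 14.2%, TTCNNNGAA in 8.30% and CACGTG in 7.15%. A match describes letters only and is not evidence that a factor binds there.

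Across the 9 tested markers, anti-LAIR1 replicate 3 had the highest value for 5 (Mrc1, Cd163, Stab1, Clec10a and Maf) and anti-LAIR1 replicate 1 for 3 (Folr2, Msr1 and Gpnmb). Control replicate 1 had the lowest value for 5 (Mrc1, Cd163, Clec10a, Retnla and Maf) and anti-LAIR1 replicate 4 for 2 (Msr1 and Gpnmb). The core macrophage mean of control replicate 1, 4.38 log2 CPM, lay below all 4 anti-LAIR1 libraries and above the other controls. Over genes with an average of at least 1 log2 CPM, the 3 whose centred levels lay closest to the mean profile of the tested markers were Ccnb2, Mest and Cd93, with mean absolute differences of 0.129, 0.133 and 0.144 log2 units over the 7 libraries. That mean profile was lowest in control replicate 1, at -1.11. There Retnla (-4.08) and Clec10a (-3.00) lay furthest below their own means, with 3 and 0 counts, whereas Msr1 (0.38) and Gpnmb (0.17) lay above theirs.

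**Figure D2:**
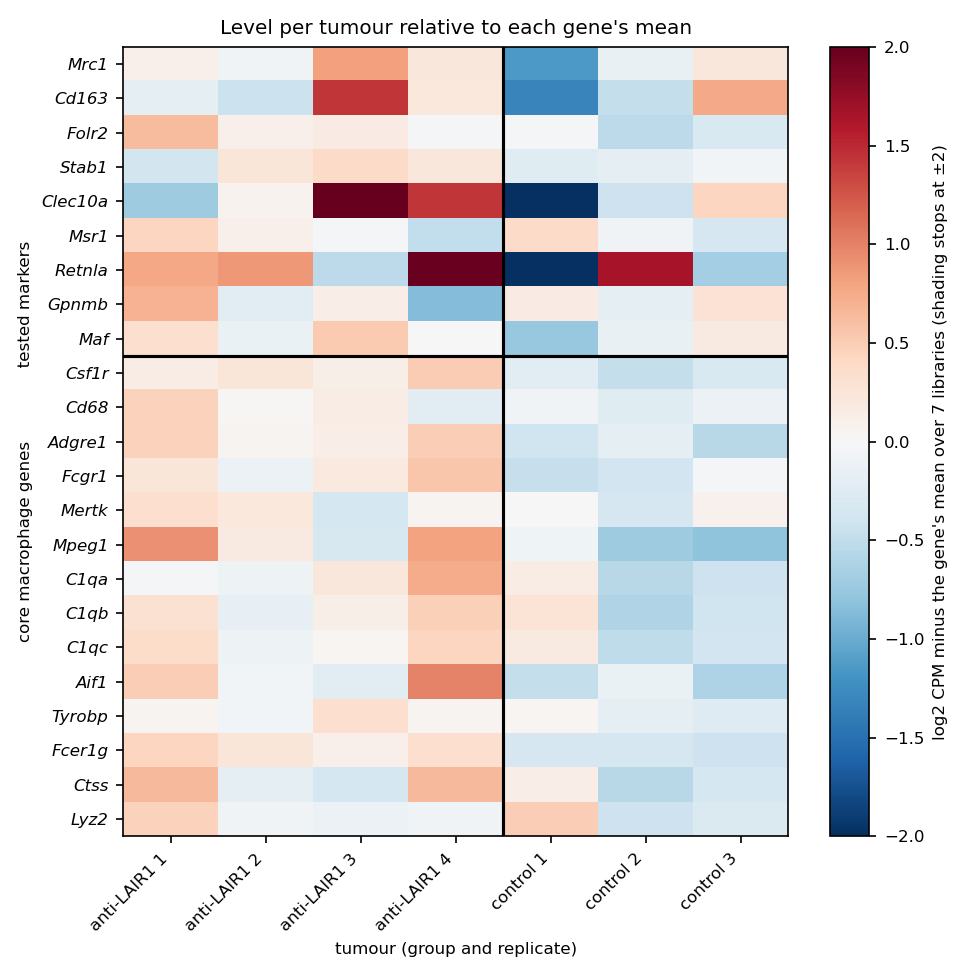
Colour gives log2 CPM of each gene minus its mean over the 7 tumours, red above and blue below, for the 9 tested markers (upper block) and 14 core macrophage genes (lower block). Control replicate 1 is dark blue for Mrc1, Cd163, Clec10a and Retnla but not for Msr1, and in the lower block anti-LAIR1 replicates 1 and 4 are mostly red and control replicates 2 and 3 mostly blue.

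Whether the markers moved apart from macrophages in general was asked by expressing them relative to the core macrophage genes. All 14 of those genes had a log2 fold change above 0, with a median of 0.49. At an unadjusted p under 0.05 there were 4 of them, all higher, against 3.51% of all genes, and after adjustment 0. The groups were separated with anti-LAIR1 higher for 3 of them, Csf1r and Adgre1 included, against 3.06% of all genes. Csf1r, the M-CSF receptor, averaged 64.3 ± 8.20 CPM in anti-LAIR1 and 42.5 ± 3.75 CPM in control tumours, Cd68, a lysosomal glycoprotein, 21.0 ± 4.24 CPM in anti-LAIR1 and 17.4 ± 1.12 CPM in control tumours, and Adgre1, which encodes F4/80, 18.3 ± 2.81 CPM in anti-LAIR1 and 11.4 ± 1.40 CPM in control tumours. With the core macrophage level as an offset, the log2 fold change became 0.078 for Mrc1, 0.098 for Cd163, 0.075 for Folr2, -0.14 for Stab1, -0.082 for Maf and 0.079 for Retnla. Clec10a stayed at 1.47, with an SE of 1.41. Msr1 was at -0.42 (SE 0.22, 95% interval -0.86 to 0.028, edgeR adjusted p = 0.118) and Gpnmb at -0.52 (SE 0.34, 95% interval -1.20 to 0.17, edgeR adjusted p = 0.193). By this test 0 of 9 markers and 15 of all genes (0.111%) passed, and the groups overlapped for all 9. Of all genes 92.7% lay below 0 on this scale, with a median of -0.46, so Msr1 and Gpnmb lay about as far below 0 as the middle of all genes. With Csf1r, Adgre1 and Mpeg1 alone as the macrophage level, Msr1 (-0.67, edgeR adjusted p = 0.0111) and Gpnmb (-0.77, adjusted p = 0.0367) passed, as did 74.5% of all genes.

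**Figure D3:**
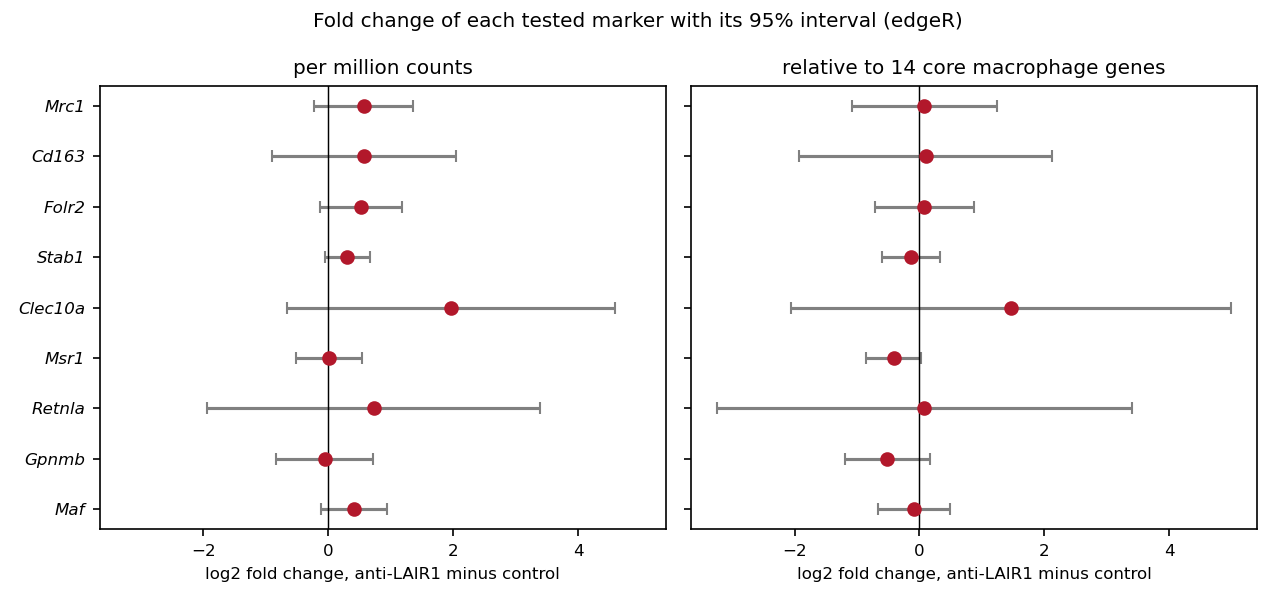
Log2 fold change (anti-LAIR1 minus control) of each of the 9 tested markers, with its 95% interval derived from the edgeR test, on CPM (left) and relative to 14 core macrophage genes (right). All intervals include 0; those of Clec10a and Retnla are the widest, and in the right panel Mrc1, Cd163, Folr2, Retnla and Maf lie within 0.1 of 0.

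Other products of alternative activation also did not pass the test. Of 13 such genes tested, 10 were above 0 and 3 below, with a median of 0.26, and 0 passed after adjustment. Arg1, arginase 1, averaged 63.5 ± 25.4 CPM in anti-LAIR1 tumours and 60.7 ± 14.9 CPM in control tumours. Chil3, which encodes the chitinase-like protein Ym1, averaged 22.9 ± 26.1 CPM in anti-LAIR1 and 21.7 ± 4.33 CPM in control tumours, and the chemokine Ccl17 1.92 ± 0.519 CPM in anti-LAIR1 and 2.14 ± 0.709 CPM in control tumours. The 2 genes of this list with separated groups and an unadjusted p under 0.05, named for that after their values were seen, were Mgl2 and the eosinophil-attracting chemokine Ccl24. Of all genes, 3.06% had groups separated with anti-LAIR1 higher, and 3.51% had an unadjusted p under 0.05 upward. Ccl24 had 4.94, 2.93, 3.54 and 1.74 CPM with anti-LAIR1, against 0.554, 1.27 and 1.12 CPM in controls (log2 fold change 1.79, edgeR adjusted p = 0.640).

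The upstream signals were measured at their receptors more than at their ligands. Il4 was at 0 counts in all anti-LAIR1 libraries and at 1 count in 1 control, and Il13 had 1, 7, 0 and 0 counts with anti-LAIR1 and 0 in all controls, so the ligands were at or near the limit of detection. The interleukin 4 receptor chain Il4ra averaged 263 ± 27.3 CPM in anti-LAIR1 and 323 ± 51.6 CPM in control tumours, a log2 fold change of -0.30 with an unadjusted p of 0.0324 (edgeR adjusted p = 0.944). Il13ra1 averaged 57.8 ± 16.2 CPM in anti-LAIR1 and 52.3 ± 10.5 CPM in control tumours, and Stat6, the transcription factor of the pathway, 142 ± 11.1 CPM in anti-LAIR1 and 143 ± 9.84 CPM in control tumours. Il2rg, the common gamma chain of several interleukin receptors, averaged 8.71 ± 1.37 CPM in anti-LAIR1 and 4.69 ± 1.01 CPM in control tumours with separated groups (edgeR adjusted p = 0.624). Of the 12 tested genes of this pathway 8 were above 0 and 4 below, with a median of 0.11. An unadjusted p under 0.05 was reached upward by 4 (Il2rg, Irf4, Klf4 and Socs1), against 3.51% of all genes, and downward by 1 (Il4ra), against 1.63%, and 0 passed after adjustment.

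Genes of the interleukin 10, glucocorticoid and M-CSF inputs were centred on 0, with 5 of 12 above it and a median of -0.011. Il10ra averaged 11.4 ± 3.15 CPM in anti-LAIR1 and 7.76 ± 2.67 CPM in control tumours, Il10rb 33.1 ± 3.01 CPM in anti-LAIR1 and 33.1 ± 3.53 CPM in control tumours, and Stat3 257 ± 38.4 CPM in anti-LAIR1 and 261 ± 29.1 CPM in control tumours, while Il10 itself stayed at 0.399 CPM or less. Other scavenger receptors had 7 of 10 above 0 and a median of 0.21. The lipid receptor Cd36 averaged 10.1 ± 7.98 CPM in anti-LAIR1 and 4.16 ± 1.58 CPM in control tumours, the lipoprotein receptor Scarb1 21.8 ± 4.47 CPM in anti-LAIR1 and 19.9 ± 4.63 CPM in control tumours, and the lysosomal receptor Scarb2 90.7 ± 9.65 CPM in anti-LAIR1 and 81.4 ± 16.7 CPM in control tumours. The 1 gene of this list with separated groups, named after its values were seen, was Cxcl16, a chemokine that also binds oxidised lipoprotein. It averaged 68.1 ± 11.2 CPM in anti-LAIR1 and 55.5 ± 3.36 CPM in control tumours (edgeR adjusted p = 0.966). Groups separated with anti-LAIR1 higher were found for 3.06% of all genes. Lysosome and lipid-associated macrophage genes, the list closest in kind to Gpnmb, had a median of 0.089 over 13 genes. Trem2, a lipid-sensing receptor, averaged 2.57 ± 0.583 CPM in anti-LAIR1 and 2.38 ± 1.05 CPM in control tumours, osteopontin (Spp1) 2253 ± 1112 CPM in anti-LAIR1 and 2663 ± 647 CPM in control tumours, and Apoe 75.9 ± 17.0 CPM in anti-LAIR1 and 57.8 ± 11.04 CPM in control tumours.

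Resident-type macrophage genes, the list closest in kind to Folr2 and Stab1, had 9 of 10 above 0 with a median of 0.41. Lyve1, a hyaluronan receptor, averaged 2.80 ± 1.51 CPM in anti-LAIR1 and 2.44 ± 0.542 CPM in control tumours, F13a1, which encodes the coagulation factor XIII A chain, 39.9 ± 13.1 CPM in anti-LAIR1 and 44.5 ± 2.47 CPM in control tumours, and the carbonyl reductase Cbr2 2.72 ± 1.24 CPM in anti-LAIR1 and 2.61 ± 0.825 CPM in control tumours. The 2 genes of this list with separated groups, named after their values were seen, were the chemokine Ccl8 and the selenium carrier Sepp1. Both were higher with anti-LAIR1, against 3.06% of all genes separated in that direction. Ccl8 had 13.6, 9.71, 16.1 and 11.6 CPM with anti-LAIR1, against 2.10, 3.96 and 4.58 CPM in controls (log2 fold change 1.89, SE 0.29, unadjusted p = 9.2e-05, edgeR adjusted p = 0.540). Sepp1 averaged 355 ± 53.8 CPM in anti-LAIR1 and 258 ± 39.3 CPM in control tumours (log2 fold change 0.46, unadjusted p = 0.0094, edgeR adjusted p = 0.831). Inflammatory macrophage genes had 6 of 8 above 0 and a median of 0.53: Nos2, the inducible nitric oxide synthase, averaged 5.80 ± 2.68 CPM in anti-LAIR1 and 5.12 ± 1.03 CPM in control tumours, Il1b 11.6 ± 2.47 CPM in anti-LAIR1 and 7.42 ± 2.38 CPM in control tumours, and Tnf 0.737 ± 0.407 CPM in anti-LAIR1 and 0.858 ± 0.172 CPM in control tumours. In this list 4 of 8 had an unadjusted p under 0.05, all higher, against 3.51% of all genes. Of the 8, 3 had groups separated with anti-LAIR1 higher, against 3.06% of all genes. Those 3, named after their values were seen, were the interferon-induced chemokines Cxcl9, at 44.1 ± 23.5 CPM in anti-LAIR1 and 11.3 ± 2.75 CPM in control tumours (edgeR adjusted p = 0.633), and Cxcl10, at 11.2 ± 6.06 CPM in anti-LAIR1 and 3.66 ± 0.432 CPM in control tumours (edgeR adjusted p = 0.624), and the costimulatory ligand Cd86, at 5.05 ± 0.660 CPM in anti-LAIR1 and 3.03 ± 0.872 CPM in control tumours (edgeR adjusted p = 0.933). Dendritic cell markers, which bear on Clec10a and Mrc1, summed to 19.0 to 39.0 CPM in anti-LAIR1 tumours and 13.1 to 16.2 CPM in control tumours, with Cd209a at 0 counts in every library. Of them, Zbtb46 averaged 5.52 ± 0.304 CPM in anti-LAIR1 and 4.61 ± 1.77 CPM in control tumours. Itgax averaged 14.9 ± 3.87 CPM in anti-LAIR1 and 8.61 ± 0.696 CPM in control tumours, with separated groups, and Ccr7 1.62 ± 1.09 CPM in anti-LAIR1 and 1.21 ± 0.995 CPM in control tumours. Xcr1, Clec9a and Flt3, named after their values were seen, did not pass the count filter. They had 79, 35 and 26 counts in anti-LAIR1 replicate 4, and at most 7, 3 and 5 in any other library. The part of dendritic cell markers in the Clec10a and Mrc1 values was not tested. T cell markers, which bear on Maf, summed to 6.48 to 34.3 CPM in anti-LAIR1 tumours and 3.67 to 13.7 CPM in control tumours. Of them, Cd3e averaged 5.94 ± 4.13 CPM in anti-LAIR1 and 2.42 ± 1.46 CPM in control tumours, and Cd3g 2.17 ± 1.07 CPM in anti-LAIR1 and 0.757 ± 0.700 CPM in control tumours. Cd4 averaged 1.33 ± 0.603 CPM in anti-LAIR1 and 0.203 ± 0.135 CPM in control tumours, with separated groups (edgeR adjusted p = 0.624). The part of T cell markers in the Maf values was not tested.

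**Figure D4:**
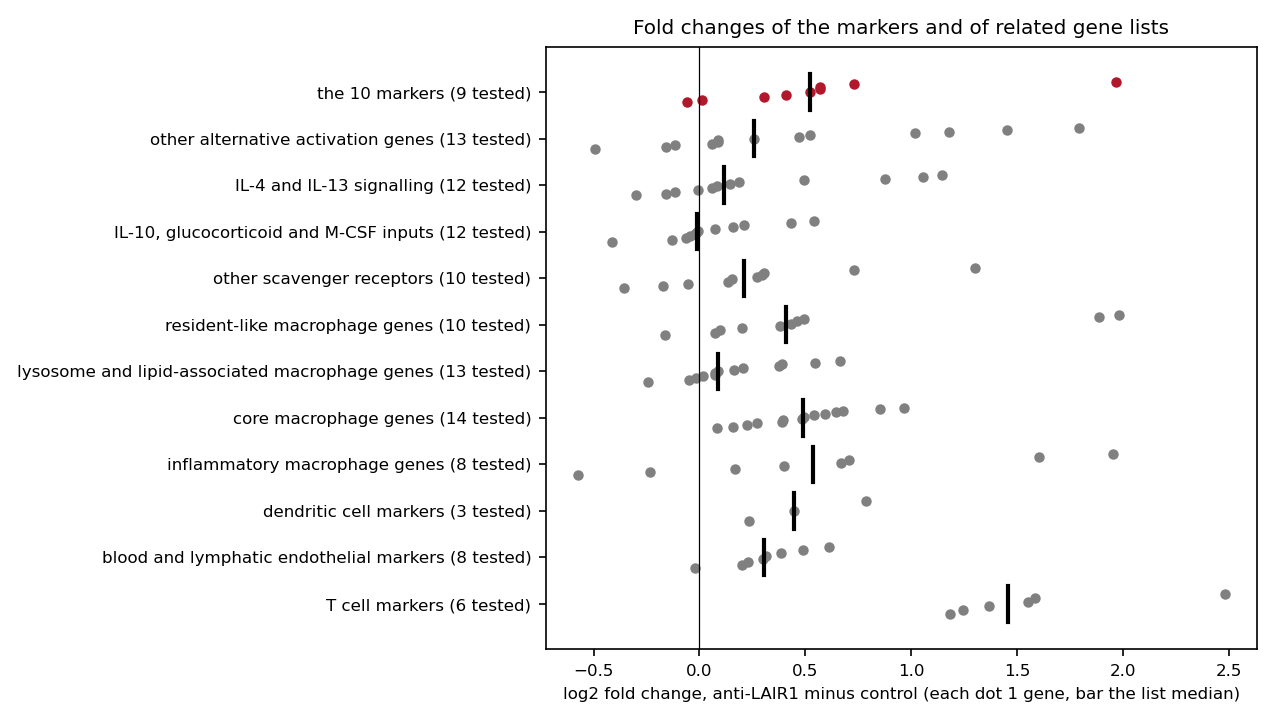
Log2 fold change (anti-LAIR1 minus control) of every tested gene in the 10 markers (red) and in 11 related lists (grey); each dot is 1 gene and the bar is the list median. The markers' median of 0.52 lies beside those of core macrophage genes, 0.49, and inflammatory macrophage genes, 0.53, and the lists were not tested against one another.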

How the data were processed

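The deposited table holds unnormalised read counts, 1 row per gene symbol and 1 column per tumour, and all 7 columns were used. Per the labels' protocols, directional libraries of polyadenylated RNA were read as single 100-base reads. Reads were trimmed, aligned and counted with tools that include featureCounts 2.0.1, STAR 2.7.6, Trim Galore and edgeR 3.40.1 on mm10, per the submitters' processing notes. The annotation, strand setting and handling of multi-mapping reads were not stated in the sources used here, so counts of near-identical genes are uncertain.

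The analysis used edgeR 4.0.16 (R 4.3.3) with filterByExpr (minimum count 10), TMM scaling, a robust quasi-likelihood fit of all 7 libraries without covariates, and Benjamini-Hochberg adjustment over all 13545 genes tested, with a threshold of 0.05. Log2 CPM used a prior count of 2. The relative comparison added each library's mean log2 CPM of the core macrophage genes as an offset. Alternatives used DESeq2 1.42.0, limma 3.58.1, other scalings and filters, thinning, a muscle covariate and single libraries left out. Values after ± are SDs over tumours (anti-LAIR1 n = 4, control n = 3) unless marked SE. The p-values set the difference between the groups against the spread between these tumours.

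The 10 markers and all lists were chosen with earlier results of these data known. All markers are named. From each other list used in the text the first 3 tested genes in its written order are named, or all where fewer were tested, besides genes named after their values were seen: those said to be so, Irf4, Klf4, Socs1, Stat6, Pparg, Flt4, Pdpn, and genes at or near 0. Further alleles of the models are not reported here. On simulated counts over 13440 genes for this comparison, edgeR recovered 94% of the genes given a 2-fold change and 100% of those given a 4-fold change, calling 9 unchanged ones. Genes were simulated as independent, the changed ones as well counted, and all with the same dispersion, a coefficient of variation of 0.18. With anti-LAIR1 every tested marker varied more than that, counting error included, from 20.5% for Stab1 to 85.8% for Clec10a. In controls Stab1 (6.82%) and Gpnmb (17.2%) varied less and the other tested markers more. These rates therefore do not apply to the markers. In the real counts the smallest edgeR adjusted p of any gene was 0.175. Gene coordinates are from RefSeq GRCm38, the assembly mm10 names, counted from 1, and exon lengths from GENCODE M21, which may differ from the authors' annotation. Figures were drawn with matplotlib 3.10.9.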

Additional observations from a re-analysis of the deposited data

How the results depend on the processing

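No marker was called by edgeR, DESeq2 or limma-voom under any of the 15 alternatives to the group comparison, and the markers' median log2 fold change lay between 0.15 and 0.57. The number of all genes called was 54 of the 18558 genes fitted with DESeq2, against 0 of 13545 in the main fit, and from 0 to 3 when 1 library was left out. Not all of the 18558 need have received an adjusted p, so these shares are not on the same base. Folr2, Stab1, Clec10a, Mrc1, Retnla and Maf kept a positive fold change in all 15, which ran from 0.15 to 0.87 for Mrc1, 0.77 to 2.98 for Clec10a, 0.094 to 2.99 for Retnla and 0.038 to 0.63 for Maf. The sign of Cd163 turned (-0.32) with the muscle level as a covariate, which nearly followed the groups. The highest Cd163 value was 1.30. Without single libraries the fold change ran from -0.14 to 0.24 for Msr1 and from -0.38 to 0.15 for Gpnmb, each turning sign in some of the 7 fits.

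Relative to core macrophage genes, the count of markers called was 2 with Csf1r, Adgre1 and Mpeg1 as the macrophage level, against 0 otherwise. With Csf1r, Adgre1 and Mpeg1 the sign turned for Mrc1 (-0.15), Cd163 (-0.13), Folr2 (-0.18) and Retnla (-0.16). Leaving out single libraries also turned signs on this scale: the range was -0.28 to 0.41 for Mrc1, -0.60 to 0.88 for Cd163, -0.019 to 0.21 for Folr2, -0.30 to 0.038 for Stab1, -0.55 to 2.40 for Retnla and -0.37 to 0.17 for Maf. Clec10a, Msr1 and Gpnmb kept their sign in all 9 of these alternatives. The cause of the turns was not tested.

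No paired analysis was possible because the labels number no replicates across the groups. Low counts limit Marco, Clec10a and Folr2, which had at most 11, 56 and 63 counts in a library.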
